A study of Homo sapiens with 22 samples.

Results

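The SOX2 line is a WT RPTEC line that was transduced with a lentiviral vector carrying SOX2 and profiled by RNA-seq in 2 of the 22 libraries of the study. RPTEC are human renal proximal tubule epithelial cells immortalized with hTERT. The SOX2 libraries were compared with the 6 libraries of the other transduced WT lines, which carried eGFP (the control vector), OCT2 or PRRX1 in 2 libraries each. All 8 libraries came from WT cells that had received a lentivirus and puromycin and were grown with 10% serum. None of these 4 lines carried an edited SETD2 gene or received TGF-β. The comparison addresses which genes differ when SOX2, rather than another factor or eGFP, is delivered to renal epithelium, a question the study raised because SOX2, OCT2 and PRRX1 were candidate effectors of SETD2 loss. Each line is 1 bulk population selected with puromycin rather than a set of independent transductions, so the transgene and the line cannot be told apart. No label states that the duplicates are separate cultures, so the p-values measure a spread between duplicates that may be technical. Unless stated otherwise, that spread was estimated from the duplicates of all 22 libraries, the KO, rescue, TGF-β and low-serum groups included, not from these 8 alone.

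SOX2 is a transcription factor with an HMG box, the DNA-binding fold shared by the SOX family, and it bends DNA at short sites of the CATTGT and CTTTGT kind. It maintains embryonic and neural stem cells, often together with POU-domain factors such as POU5F1, and it is one of the factors used to reprogram differentiated cells. OCT2, encoded by POU2F2, is a POU-domain factor known from B cells, and PRRX1 is a homeobox factor of mesenchyme.

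The level of SOX2 mRNA was not analysed here, so the label of the SOX2 line could not be checked by its own transgene. The study itself reported ectopic SOX2, OCT2 and PRRX1 protein in transduced WT cells by western blot. In the libraries, the mRNA of the OCT2 and PRRX1 transgenes followed the labels. POU2F2 was at 1251 and 1121 normalized counts in the OCT2 libraries and at 232 and 395 in the SOX2 libraries, with the eGFP and PRRX1 libraries between 175 and 357. PRRX1 was at 395 and 404 in the PRRX1 libraries, at 0 in both SOX2 libraries, and at 0 to 3.2 in the eGFP and OCT2 libraries. Levels of SETD2, the H3K36 methyltransferase deleted elsewhere in the study, were 2980.4 and 2874 in the SOX2 libraries and 2702 to 3128 in the others. Of 10 markers of kidney tubule epithelium, 9 reached 10 normalized counts in at least 1 of the 8 libraries, and their sum was 21128 and 21308 in the SOX2 line and 18471 to 20840.2 in the others. LRP2, the megalin receptor that defines mature proximal tubule, was at 0 in all 8 libraries. The 9 fibroblast markers summed to 5317 and 5334 in the SOX2 line and 3686 to 6047 in the others, the 8 endothelial markers to 7.84 and 27.4 against 3.31 to 41.1, and the 8 immune markers to 89 and 139 against 85.5 to 151. Among the markers listed at 0 in all 8 libraries were CLDN5, EMCN, CD3E, ITGAM and TYROBP. Of the 9 tubule, 8 fibroblast, 5 endothelial and 3 immune markers tested, 0 were called in the SOX2 line, where 0.0206% of all genes were. With so few calls among all genes, this count does not bear on cell identity. A 0 in this file was not read as absence, because MCM6, a helicase subunit that dividing cells use, did not exceed 1.17 in any of the 8 libraries. In bulk RNA, fewer cells of a type and less RNA per cell cannot be told apart.

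The SOX2 line differed from the other transduced lines by little more than duplicates differed from each other. The distance between a pair of libraries was taken as the median size of the log2 difference over the 2269 genes whose mean reached 1000 normalized counts. For the SOX2 duplicates it was 0.0632, the lowest of the 4 lines, and the other duplicates reached 0.114. A SOX2 library and a library of another line differed by 0.0795 to 0.153 (median 0.0927 over 12 pairs), and libraries of 2 other lines by 0.0825 to 0.155 (median 0.107 over 12 pairs). The ranges overlapped. The first eGFP and the second PRRX1 library held the fewest reads, about 10600000 each against 13800000 to 15400000 in the other 6. The 13 pairs with either of them lay between 0.101 and 0.155 and the 15 pairs without them between 0.0632 and 0.098, and the part of depth in this was not tested.

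**Figure D1:**
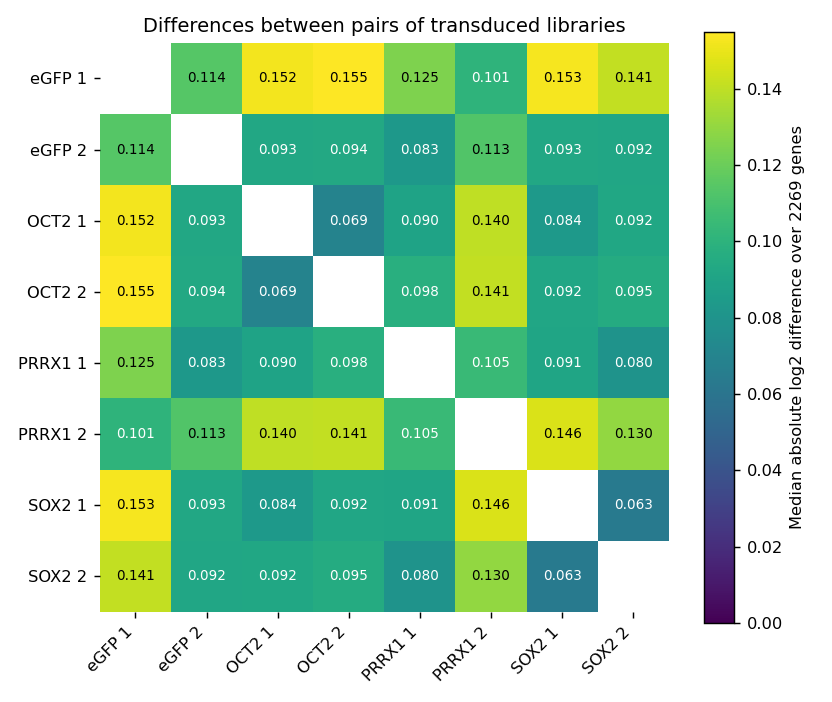
Median absolute log2 difference between each pair of the 8 transduced libraries over 2269 genes, where each cell is a pair and the colour scale starts at 0. The SOX2 duplicates have the smallest value (0.0632), and the rows of the first eGFP and second PRRX1 libraries hold the values above 0.1.

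Few genes separated the SOX2 line. Of 14585 genes tested with limma against the mean of the other 3 lines, 3 were called with an adjusted p under 0.05 and a log2 difference over 1 in size (0.0206%). COL27A1 and the unnamed gene ENSG00000278326 were higher (2 genes, 0.0137%) and CDH3 was lower (1 gene, 0.00686%). At an unadjusted p under 0.05 there were 673 genes (4.61%), of which 394 were higher and 279 lower, and 233 of the 673 also passed the fold limit. The count of 3 became 1 without either OCT2 library, 6 without the first PRRX1 library, and 10 or 5 without the first or second SOX2 library. The median log2 difference over all genes was 0.01.

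The data set limits on differences that were not called, and these limits depended on the level of the gene. The median standard error was 0.0921 for genes that reached 1000 normalized counts, and the 95% interval lay within a 2-fold difference in either direction for 2226 of 2269 genes (98.1%). For 5881 genes between 100 and 1000 the share was 80.6%, and for 6435 genes below 100 it was 11%. A single gene above 1000 normalized counts differed by over 2-fold in the fit. This was FAM168B, at log2 -4.73 (95% interval -8.39 to -1.08, adjusted p = 0.957). Such wide intervals came with duplicates that disagreed: 29 genes in the SOX2 line, and 21 to 39 in each of the other 3, were at 0 in 1 duplicate and at 100 normalized counts or more in the other.

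**Figure D2:**
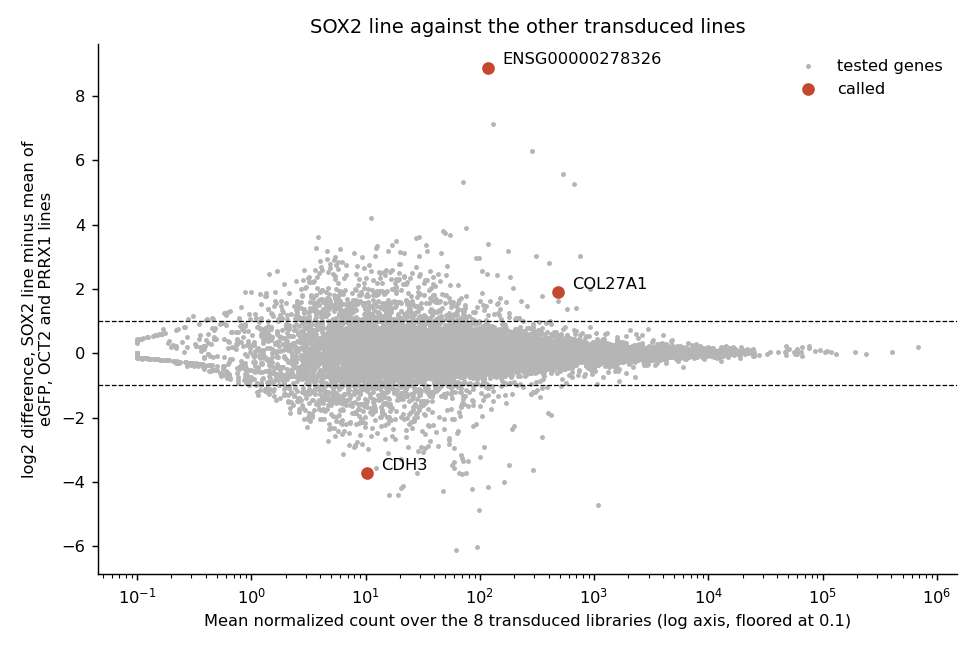
Log2 difference of the SOX2 line from the mean of the eGFP, OCT2 and PRRX1 lines (vertical axis) against the mean normalized count of the 8 transduced libraries (horizontal, log axis) for 14585 genes. Dashed lines mark a log2 difference of 1 in either direction, and the 3 called genes are named. The spread narrows with level, and COL27A1 stands at 1.90 where its neighbours in level lie mostly between the dashed lines.

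COL27A1 rose in the SOX2 line. It encodes the chain of type XXVII collagen, a fibrillar collagen known from cartilage. Its levels were 1049 and 1075 normalized counts in the SOX2 libraries, 256 and 261 in the eGFP libraries, 284 and 321 in the OCT2 libraries, and 262 and 327 in the PRRX1 libraries. Both SOX2 libraries lay above all 6 others, and no other line approached them. The log2 difference was 1.90 ± 0.22 (SE, n = 2 against 6 libraries, 95% interval 1.43 to 2.37, adjusted p = 0.00614 by limma), a 3.73-fold rise. Against single lines the log2 difference was 2.03 for eGFP (adjusted p = 0.0102), 1.81 for OCT2 (adjusted p = 0.115) and 1.86 for PRRX1 (adjusted p = 0.029). Without the second SOX2 library the log2 difference was 1.88 and the adjusted p was 0.0504. On the deposited scale, which compresses differences, COL27A1 had a log2 difference of 0.44 and the adjusted p was 9.2e-05.

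Across the groups of the study the SOX2 line held the highest mean of COL27A1, at 1062 ± 18.3 normalized counts (SD, n = 2). TGF-β-treated WT cells were next at 848 ± 136 (SD, n = 2), and untreated WT cells in 2% serum were at 298 ± 103 (SD, n = 2). The SETD2 KO clones had the lowest means, with 134 ± 13.3 in KO1 and 145 ± 19.8 in KO2 (SD, n = 2 each). KO cells differed from WT by log2 -1.05 (adjusted p = 0.00206), so the SOX2 line and the KO clones differed from their own controls in opposite directions.

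COL27A1 occupies bases 114155537 to 114312511 of chromosome 9 (GRCh38) and is read from the plus strand. The sequence just before its start is shown because this gene carries the clearest difference of the SOX2 line and SOX factors bind short, recognizable sites. It is the RefSeq reference of GRCh38.p14 at chr9:114155287-114155536, plus strand, 250 bases with a GC content of 64.4%, and capitals mark the 50 bases next to the start.
COL27A1: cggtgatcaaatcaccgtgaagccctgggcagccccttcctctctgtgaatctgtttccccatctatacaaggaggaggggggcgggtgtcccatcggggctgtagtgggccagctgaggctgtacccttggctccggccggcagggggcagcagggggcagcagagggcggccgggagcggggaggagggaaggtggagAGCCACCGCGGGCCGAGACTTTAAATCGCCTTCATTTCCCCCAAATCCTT
These bases and the first 50 of the transcript were searched on both strands for CATTGT and CTTTGT. Neither motif matched, whereas CATTGT matched 10.8%, CTTTGT 16.1% and either of them 24.5% of 35116 RefSeq promoters of the same length. This says only that these letters are not in the 300 bases searched.

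Genes near COL27A1 did not pass the test. Within 500 kb on either side 6 further genes were tested. ZNF618, KIF12 and AKNA, all above 1000 normalized counts, differed by log2 0.02, -0.02 and 0.02, with 95% intervals that stayed between -0.40 and 0.37. AMBP, WHRN and TMEM268 were under 50 normalized counts, and their intervals of -0.72 to 3.57, -3.06 to 0.87 and -4.61 to 1.81 leave large differences possible.

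CDH3 fell in the SOX2 line from a level that was already low. It encodes P-cadherin, an adhesion molecule of basal epithelia, on chromosome 16 from 68636189 to 68727468. It was at 0 in both SOX2 libraries, 15.8 and 11.1 in the eGFP libraries, 7.63 and 5.31 in the OCT2 libraries, and 24.5 and 18.5 in the PRRX1 libraries. The groups did not overlap. With 3 normalized counts per library as the floor the level was at least 4.60-fold lower, and the fitted log2 difference was -3.73 (95% interval -4.83 to -2.63, adjusted p = 0.0261). The call was lost with a pseudocount of 5 (log2 -1.82, adjusted p = 0.18), in a fit of the 8 transduced libraries alone (0.0929), among genes with a mean of at least 50 (0.0708), with the PRRX1 line left out of the comparison (0.0641), and without both libraries of fewest reads, a choice made after the data were seen (0.101). It was also lost without the first eGFP library (adjusted p = 0.0667), without the first or second OCT2 library (0.0894 and 0.0669), and without the first or second SOX2 library (0.149 and 0.138). For comparison, CDH3 was at 470 ± 19.8 in untreated WT cells in 2% serum (SD, n = 2), so all transduced lines lay far below them.

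ENSG00000278326, which has no name or position in GENCODE 44, was at 415 and 528 normalized counts in the SOX2 libraries and at 0 in the 6 others. Against the floor it was at least 157-fold higher, with adjusted p = 0.0267. The same gene was at 558 and 1042 in the KO1 libraries, at 0 and 224 in TGF-β-treated WT, and at 0 in the remaining 10 libraries, KO2 included. It was thus detected in some groups and at 0 in close relatives, but the TGF-β duplicates also split from each other, so a 0 did not always mark a group. Its call was lost without the first or second eGFP library (adjusted p = 0.0695 and 0.0555), the first or second OCT2 library (0.0894 and 0.0721), the second PRRX1 library (0.0538), or the first or second SOX2 library (0.177 and 0.222), and also among genes with a mean of at least 50 (0.0906), with the PRRX1 line left out (0.0514) or without both libraries of fewest reads (0.119).

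Set against single lines, the SOX2 line gave 3 calls against eGFP (0.0206%), 0 against OCT2 (0%) and 3 against PRRX1 (0.0206%), with 986, 539 and 770 genes at an unadjusted p under 0.05. The calls against eGFP were COL27A1, P3H3 and ENSG00000279389. P3H3, a collagen prolyl hydroxylase, was at 380.3 and 359 in the SOX2 libraries and at 46.7 and 23.5 in the eGFP libraries (log2 3.44, adjusted p = 0.00477). The OCT2 and PRRX1 libraries held 383 to 513, so P3H3 set the eGFP line apart from all 3 others. ENSG00000279389 likewise was at 37.9 and 31.9 in the eGFP libraries and at 0 in the 6 others. The calls against PRRX1 were COL27A1, CDH3 and PRRX1 itself, the transgene of that line. The count against eGFP was 7 without the first and 36 without the second eGFP library, and 7 or 8 without the first or second SOX2 library. COL27A1 was not among the genes called against eGFP without the first eGFP library or without either SOX2 library.

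The other lines, each set against the mean of the remaining 3, gave 8 calls for eGFP (0.0549%), 1 for OCT2 (0.00686%) and 1 for PRRX1 (0.00686%). Both SOX2 libraries lay above the 6 others for 744 genes (5.1%) and below them for 508 (3.48%). For the other lines these counts were 508 to 701 above and 552 to 735 below. The SOX2 line thus had the most genes above and the fewest below among the 4 lines.

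Among the genes that did not overlap (1252 of 14585, 8.58%), the 16 protein-coding genes of lowest p with a mean of at least 100 normalized counts were taken after their values were seen. COL27A1 was called, and the other 15 did not pass the adjusted test. Of these, 14 are described as values.

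LOXL2, a lysyl oxidase that crosslinks collagen, was at 53932 and 52947 normalized counts in the SOX2 libraries and 43706 to 47854 in the others (log2 0.22, 95% interval 0.13 to 0.31, adjusted p = 0.139). Both SOX2 libraries stood above the 6 others, and the interval leaves out a 2-fold difference. EPHB2, an ephrin receptor, was at 7916 and 7487 against 5725 to 6849 (log2 0.31), and PTPRB, a receptor phosphatase best known from endothelium, at 1871 and 1883 against 1349.5 to 1702 (log2 0.33). ST3GAL1, which adds sialic acid to O-glycans, was at 703 and 827 against 350.4 to 506 (log2 0.76, interval 0.37 to 1.15).

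HMGA1, an architectural chromatin protein abundant in stem and tumor cells, was at 5730.4 and 5649 in the SOX2 libraries and at 4118 to 4752 in the others (log2 0.38, 95% interval 0.24 to 0.52, adjusted p = 0.0893). CELF2, a splicing regulator, was at 417 and 501 against 237 to 313 (log2 0.73, interval 0.42 to 1.04), and DDX3X, an RNA helicase, at 4151 and 4088 against 3039.7 to 3697 (log2 0.28). The lower genes were ZNF638, a nuclear zinc finger protein, at 804 and 702 against 937 to 1332 (log2 -0.56, interval -0.82 to -0.29), and PTRHD1 at 303 and 301 against 380.1 to 430.5 (log2 -0.45). The rest, CDKN1A, APOL1, BAG6, EMC1 and YIF1B, were higher by log2 0.21 to 0.62. CDKN1A, the p21 inhibitor of cyclin-dependent kinases, was at 4854 and 4927 against 3355 to 4494.

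THY1 and MATN2 passed an adjusted p of 0.05 on the deposited scale alone. THY1, a surface glycoprotein of fibroblasts and mesenchymal stem cells, was at 2936 and 2788 in the SOX2 libraries, 1725 and 1895 in eGFP, 2098 and 2189.5 in OCT2, and 1506 and 1222 in PRRX1 libraries. The SOX2 line was highest without overlap, at log2 0.72 (95% interval 0.08 to 1.36, adjusted p = 0.989), and the deposited values gave an adjusted p of 0.000627. MATN2, a matrix adaptor protein, was at 4821 and 4774 in the SOX2 libraries and 5503 to 7270.2 in the others (log2 -0.42, interval -0.73 to -0.10), with adjusted p = 0.0301 on the deposited scale. For both genes the step between the OCT2 and the SOX2 line, log2 0.42 and -0.21, was the smallest of the 3.

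**Figure D3:**
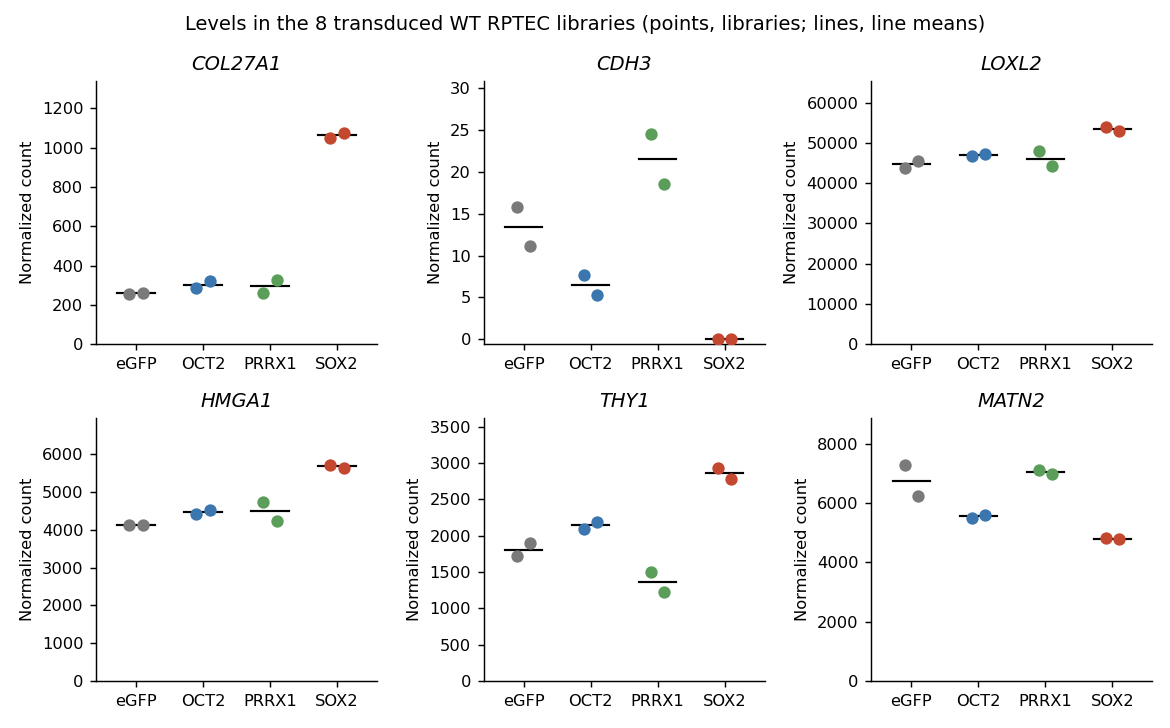
Normalized counts of COL27A1, CDH3, LOXL2, HMGA1, THY1 and MATN2 in the 8 transduced libraries, with points for libraries and lines for the mean of each line. COL27A1 is at 1049 and 1075 in the SOX2 line against at most 327 elsewhere, CDH3 is at 0, and the SOX2 line does not overlap the other lines for the remaining 4 genes.

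To see whether known programs differed, 23 lists with 426 distinct genes were examined, covering stem cells, signaling, cell identity and cell state. Of these genes 301 were tested and 0 were called by limma, where 0.0206% of all genes were. At an unadjusted p under 0.05 there were 21 (6.98%, against 4.61% of all genes), 32 did not overlap (10.6%, against 8.58%), and for 145 (48.2%, against 52.6% of all genes) the 95% interval stayed within a 2-fold difference. The lists were not matched to all genes for level. An unadjusted p under 0.05 was reached by 170 of 2269 genes at 1000 normalized counts or more and by 256 of 6435 under 100. The list medians ran from -0.16 to 0.24.

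**Figure D4:**
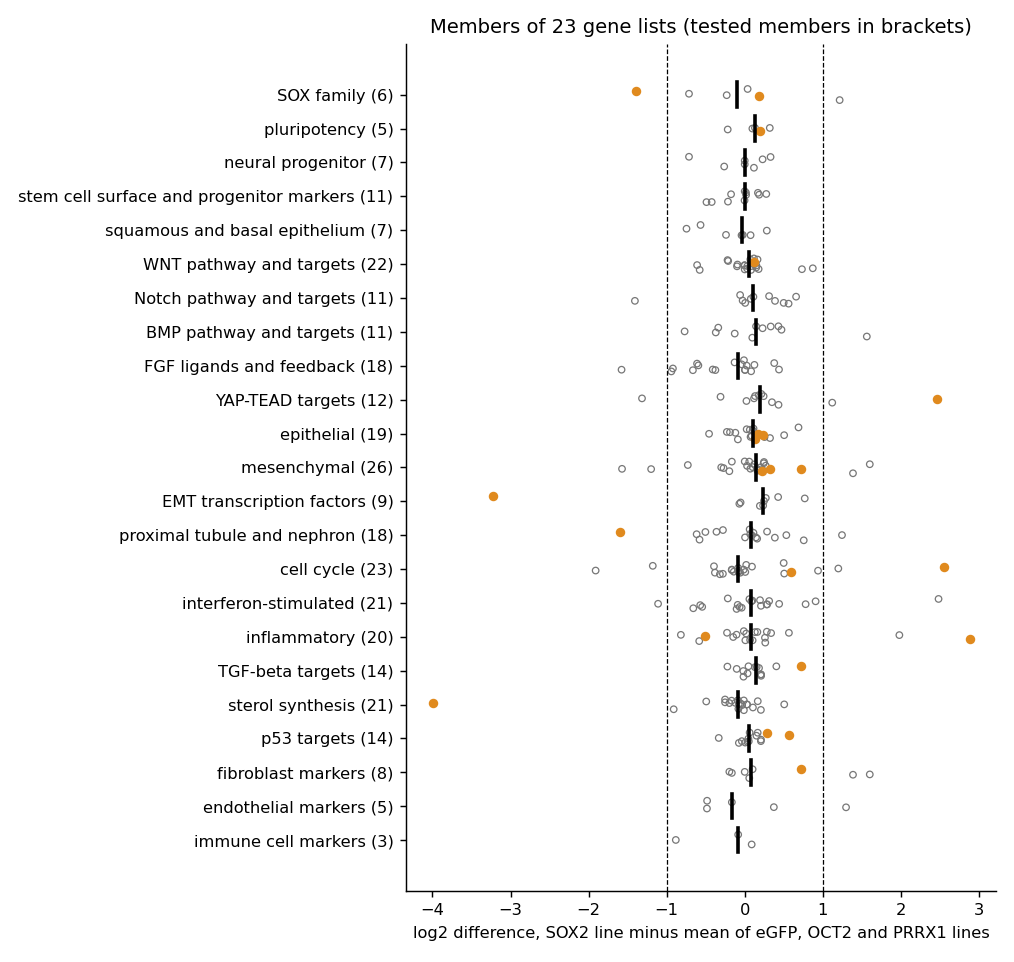
Log2 difference of the SOX2 line from the other transduced lines for the tested members of 23 lists, 1 point a gene. Filled orange points have an unadjusted p under 0.05 (21 distinct genes), bars are list medians, and dashed lines mark a log2 difference of 1 in either direction. All medians lie between -0.16 and 0.24, and no member was called.

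Stem cell programs showed no called gene. Of 19 SOX family genes 6 were tested, with log2 differences of -1.40 to 1.22. SOX4, an effector of TGF-β signaling, was at 4778 and 4827 in the SOX2 libraries and 4071 to 5560.1 in the others (log2 0.04, 95% interval -0.18 to 0.25). SOX12 was at 925 and 938 against 714 to 949 (log2 0.19, unadjusted p = 0.0408), and SOX1 was at 0 in all 8. SOX5, at 1.06 and 0 against 0 to 10.4, was the lower of the pair of SOX genes with an unadjusted p under 0.05 and was close to the floor in both groups.

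Of 24 pluripotency genes 5 were tested. POU5F1, the OCT4 partner of SOX2 in embryonic stem cells, was at 77.3 and 127 against 89.4 to 138 (log2 -0.22, 95% interval -0.92 to 0.49), and NANOG did not exceed 1.81 in any of the 8 libraries. MYC was at 3204 and 2772 against 2091 to 3375 (log2 0.10, interval -0.27 to 0.47). DNMT3B, a de novo DNA methyltransferase, was the 1 pluripotency gene without overlap, at 1247 and 1288 against 1066 to 1190.3 (log2 0.19, unadjusted p = 0.016).

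Neural progenitor genes (7 of 22 tested) had a median of 0.00. PAX6, an eye and brain homeobox factor, was at 50.7 and 61 against 45.6 to 140.3 (log2 -0.71, interval -1.49 to 0.07), and L1CAM, a neural adhesion molecule, at 11146 and 10763 against 8993 to 10707 (log2 0.12). Stem cell surface markers (11 of 14 tested) had a median of 0.00 as well. CD44, the hyaluronan receptor, was at 18051 and 18169.6 against 16477 to 19607 (log2 0.02, interval -0.12 to 0.15), and PROM1, encoding CD133, at 782 and 873 against 610.4 to 804 (log2 0.18, interval -0.10 to 0.47). For both a 2-fold difference lies outside the interval. The squamous and basal list (7 of 21 tested, median -0.04) held genes with low values, with KRT5 listed at 0 in all 8 libraries and TP63 at 1.19 and 0 against 0 to 6.94.

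In the WNT, Notch, BMP, FGF and YAP lists the genes with an unadjusted p under 0.05 were DKK3 and TEAD4. Of 22 tested WNT genes (median 0.05), DKK3, a secreted modulator of WNT signaling, was at 6947 and 6637 against 5885 to 6726 (log2 0.12, unadjusted p = 0.0244). AXIN2, the feedback target of canonical WNT signaling, was at 231 and 265 against 201 to 272 (log2 0.03, 95% interval -0.64 to 0.71), and LGR5 was at 0 in all 8. The ligand WNT5A was at 1046 and 1057 against 861 to 1134 (log2 0.07), and CCND1, encoding cyclin D1, at 4286 and 4082 against 3944 to 4325 (log2 0.00, interval -0.29 to 0.28). LGR4, a receptor for R-spondins, was the 1 tested member of the list without overlap, at 76.4 and 66.8 against 94 to 128 (log2 -0.61, unadjusted p = 0.185).

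Notch genes (11 tested, median 0.11) included NOTCH1 and NOTCH2, which did not exceed 33.9 in any of the 8 libraries, and the ligand JAG1 at 3058 and 2917 against 2223 to 3294 (log2 0.11, interval -0.40 to 0.62). BMP genes (11 tested, median 0.15) included the ligand BMP4 at 316 and 416 against 423 to 524 (log2 -0.34, interval -2.10 to 1.43) and the target ID1 at 333 and 261 against 217 to 255 (log2 0.33, interval -0.43 to 1.10), both without overlap and without passing the test. FGF genes (18 tested, median -0.08) included FGF1 at 149 and 192 against 106 to 159 (log2 0.44) and FGF2 at 2401 and 2395 against 2306 to 2518 (log2 0.00, interval -0.13 to 0.14). Among YAP-TEAD genes (12 tested, median 0.20), TEAD4, a DNA-binding partner of YAP, was at 29.1 and 108 against 0 to 36.8 (log2 2.46, unadjusted p = 0.00468) and the target CCN1 at 6.29 and 19.4 against 18.1 to 42.1 (log2 -1.32). These 2 genes had wide spread between duplicates.

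Epithelial and mesenchymal genes were set apart because EMT, the loss of epithelial character, is the phenotype the study followed. Compared with eGFP cells, the study reported more migration, invasion and spheroid formation in WT cells given SOX2, and likewise for OCT2 and PRRX1. Those were assays of cell behaviour, whereas the values here are RNA levels set against all 3 other lines. Of 19 tested epithelial genes 3 were higher at an unadjusted p under 0.05 and 0 lower (median 0.10). The keratins KRT8 and KRT19 were at 11287 and 10695 against 9055 to 10881 (log2 0.13) and at 10825 and 10048 against 8733 to 10159 (log2 0.17). JUP, encoding plakoglobin of adherens junctions and desmosomes, was at 3921 and 3934 against 2896 to 3748 (log2 0.24, 95% interval 0.08 to 0.40). EPCAM was at 1037 and 949 against 903 to 1032 (log2 0.02, interval -0.18 to 0.23). CDH1, E-cadherin, varied from 0 to 58 among the 6 other libraries and was at 7.74 and 47.2 in the SOX2 line, so its interval of -2.56 to 3.06 leaves large differences possible.

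Of 26 tested mesenchymal genes 3 were likewise higher and 0 lower at an unadjusted p under 0.05 (median 0.14), namely THY1, LOXL2 and ACTA2. ACTA2, the smooth muscle actin of myofibroblasts, was at 303 and 312 against 217 to 262 (log2 0.32, interval 0.13 to 0.51). VIM, encoding vimentin, was at 88601 and 89464 against 78518 to 89294 (log2 0.07, interval -0.05 to 0.20), and FN1, encoding fibronectin, at 750683 and 752935 against 605359 to 720724 (log2 0.18, interval -0.47 to 0.82). Both SOX2 libraries lay above the 6 others for 6 of the 26 mesenchymal genes (ACTA2, FBN1, FN1, LOXL2, THY1 and TNC) and below them for 0, against 2 above (CLDN4 and JUP) and 0 below of the 19 epithelial genes, where 5.1% of all genes lay above. The difference between the lists was not tested.

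EMT transcription factors (9 tested) had the highest median, 0.24. SNAI2 was at 481 and 496 against 337 to 451 (log2 0.27, interval -0.43 to 0.97), ZEB1 at 1236 and 1281 against 1242 to 1433 (log2 -0.05, interval -0.21 to 0.10) and ZEB2 at 1609 and 1679 against 1562 to 1886 (log2 -0.07). The 1 unadjusted hit was PRRX1 (log2 -3.23), which is the transgene of a line it was compared with. Proximal tubule genes (18 tested, median 0.08) kept PAX8 at 5988 and 6286 against 5512 to 6092 (log2 0.07) and PAX2 at 1045 and 1187 against 996 to 1226 (log2 0.00), both nephron transcription factors, while CUBN, the cubilin receptor, was at 36.1 and 44.6 against 33.3 to 184 (log2 -0.62, interval -2.33 to 1.10). LHX1, a factor of the developing nephron, was at 6.62 and 1.88 against 5.26 to 22.6 (log2 -1.60, unadjusted p = 0.0141).

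Cell cycle genes had no called member (23 tested, 2 higher and 0 lower at an unadjusted p under 0.05, median -0.08). MCM5, a subunit of the replicative helicase, was at 565 and 541 against 281 to 427 (log2 0.59, 95% interval 0.13 to 1.05), whereas MCM4 and MCM7 of the same helicase were at log2 -0.32 and 0.02. CCNA2, encoding cyclin A2, was at 253 and 164 against 0 to 169 (log2 2.55), MKI67 at 1817 and 1624 against 1556 to 2319.5 (log2 -0.17, interval -1.08 to 0.75), and TOP2A at 97.7 and 124 against 54.9 to 90.4 (log2 0.51, interval -0.68 to 1.69). Of 14 tested p53 targets (median 0.06), CDKN1A and the pro-apoptotic BAX were higher at an unadjusted p under 0.05, with BAX at 893 and 641 against 443 to 675 (log2 0.56). MDM2, the p53 inhibitor, was at 314 and 354 against 282 to 532 (log2 -0.33, interval -0.71 to 0.05).

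Interferon genes (21 tested, median 0.08) had no unadjusted hit. IFIT2 was at 112 and 129 against 93.3 to 185 (log2 -0.10, interval -0.67 to 0.46), and IFIT1, not tested, did not exceed 13.6. Inflammatory genes (20 tested, median 0.08) split, with the chemokine CCL20 at 143 and 168 against 153 to 256 (log2 -0.51, unadjusted p = 0.0137) and PTGS2, encoding COX-2, at 10.8 and 12.5 against 0 to 6.34 (log2 2.88, unadjusted p = 0.00464). The cytokines IL6 and IL1A were at 4499.8 and 4223 against 3338 to 4693 (log2 0.13) and at 642 and 743 against 502 to 626 (log2 0.26), with intervals of -0.23 to 0.49 and -0.07 to 0.59.

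Among TGF-β targets (14 tested, median 0.14), the feedback inhibitor SMAD7 was at 1419 and 1273 against 1032 to 1284 (log2 0.21, interval -0.08 to 0.50). PMEPA1, another feedback inhibitor of the pathway, was at 940.2 and 837 against 287 to 939 (log2 0.72, unadjusted p = 0.0233), with 3 of the 6 other libraries as high as 794 to 939. Sterol synthesis genes (21 tested, median -0.08) included the early enzyme HMGCS1 at 1631 and 1833 against 1549 to 2016 (log2 -0.08, interval -0.21 to 0.06). SQLE, squalene epoxidase, was at 0 in 1 SOX2 library and 135 in the other against 107 to 295, and its log2 difference of -3.99 rested on the library at 0.

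The remaining lists marked other cell types. Fibroblast markers (8 tested) had a median of 0.08 and endothelial markers (5 tested) of -0.16. COL1A1 was at 637 and 484 against 427 to 781 (log2 0.06), COL1A2 at 5.78 and 4.42 against 0 to 4.62 (log2 1.39, interval -0.27 to 3.05), and CDH5 at 3.02 and 17.6 against 0 to 15.5 (log2 1.30). Immune markers (3 tested) had a median of -0.08, with CD14 at 6.97 and 8.77 against 4.88 to 13.2 (log2 0.09). PECAM1 did not exceed 1.06 and PTPRC 0.996 in any of the 8 libraries.

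Finally the SOX2 line was set beside SETD2 loss, since the study asked what SOX2 contributes to it. The SOX2 differences are those against the mean of the eGFP, OCT2 and PRRX1 lines. Any change that SOX2 shares with OCT2 or PRRX1 is reduced in them, so they do not measure all that SOX2 adds. The SOX2 line against eGFP alone was not set beside KO. KO1 and KO2, a pair of edited clones, were compared with untreated WT cells, all in 2% serum and sharing no library with the SOX2 comparison. Of 14585 genes 3094 were called (21.2%), 1567 higher (10.7%) and 1527 lower (10.5%). In the SOX2 line the genes higher in KO had a median log2 difference of 0.05 (quartiles -0.15 and 0.29) and those lower in KO one of -0.01 (quartiles -0.18 and 0.17), where all genes had 0.01 (quartiles -0.15 and 0.20).

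Among the genes higher in KO, 106 (6.76%) had an unadjusted p under 0.05 in the SOX2 line, 80 of them higher and 26 lower, and among those lower in KO 63 (4.13%), 32 higher and 31 lower. Of all genes it was 4.61%. Called in the SOX2 line was 1 of the 1567, ENSG00000278326, and 2 of the 1527, CDH3 and COL27A1. Over all 14585 genes it was these 3 (0.0206%). ENSG00000278326 had a mean of 799.9 normalized counts in KO1 and 0 in KO2. COL27A1 went in the other direction. Over the 8150 genes whose mean in the transduced libraries reached 100 normalized counts, Pearson's r between the log2 differences was 0.014 and Spearman's rho 0.065. This is across genes, which are not independent replicates, and the serum differed between the comparisons.

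For several genes the controls of the 2 comparisons started from different levels. IGF2, a fetal growth factor, was at 0.399 ± 0.565 normalized counts in untreated WT cells in 2% serum, below the floor, and at 5576 ± 1069.9 in KO1 and 2703 ± 150.3 in KO2 (SD, n = 2 each). The eGFP, OCT2 and PRRX1 lines already held 4075 to 4808, and the SOX2 line 5810.1 and 5898 (log2 0.41, 95% interval -0.29 to 1.11). This interval rests on the spread within all groups of the study, including the WT duplicates near 0, and not on the transduced duplicates alone. The chemokine CXCL8 was at 33.9 and 36.2 in untreated WT and at 3189.8 to 4817 in the other transduced lines, and it differed by log2 5.23 in KO and 0.10 in the SOX2 line (interval -0.17 to 0.38). ZEB2 was at 324 ± 9.15 in untreated WT and 1739 ± 208 in the eGFP line (SD, n = 2 each), and differed by 2.72 in KO and -0.07 in the SOX2 line. For WNT5A the controls overlapped instead, at 969 and 398 in untreated WT and 861 to 1134 in the other transduced lines. It differed by log2 4.66 in KO and 0.07 in the SOX2 line. THY1 differed by 4.81 in KO and 0.72 in the SOX2 line, so both stood above their controls, but eGFP cells in 10% serum already held 1810.4 ± 120.1 normalized counts of THY1 against 14.7 ± 0.482 in untreated WT cells in 2% serum (SD, n = 2 each). HMGA1, at 1.07 and 0.38, was above its controls in both, but the SOX2 difference was not called and the gene was named after its values were seen. Its means were 21337 ± 93.5 in KO1, 9355 ± 935 in KO2 and 6765 ± 849.6 in untreated WT (SD, n = 2 each). The SOX2 line, at 5689.6 ± 57.8 (SD, n = 2), lay below untreated WT.

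**Figure D5:**
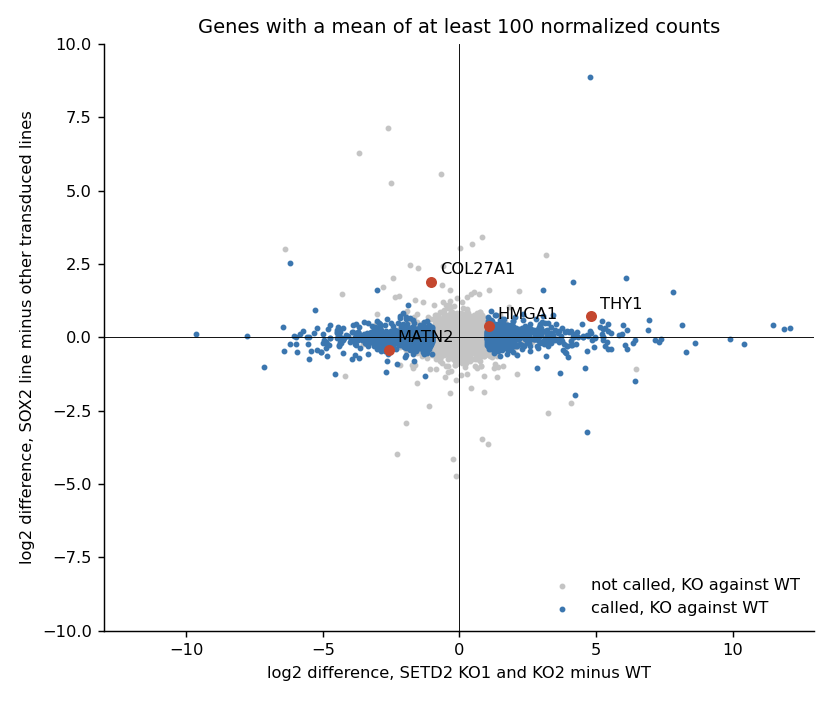
Log2 difference of the SOX2 line from the other transduced lines (vertical) against that of SETD2 KO1 and KO2 from WT (horizontal) for 8150 genes with a mean of at least 100 normalized counts. Blue points were called in KO, grey points were not, and the 4 named genes are red. Values are fitted, so those of genes near 0 in a group depend on the pseudocount. The cloud is wide along the KO axis and narrow along the SOX2 axis (Pearson's r = 0.014), and COL27A1 lies at -1.05 and 1.90.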

How the data were processed

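RNA-seq of RPTEC was available for 22 libraries in 11 groups of 2, and groups were taken from the labels. Per the labels and the study's methods, the authors made stranded poly(A) libraries (150 bp, paired), quantified reads with Salmon (1.9.0 in the submitters' processing notes) on human cDNA sequences (Ensembl release 94, GRCh38), and normalized with DESeq2 1.26.0. They deposited log2 values for 36859 genes. The sources used here do not name the transformation. The lowest value, 11.32, is common to the 22 libraries, and the spacing of the values is that of variance-stabilized counts. Inverting the stabilizing function gave the normalized counts used here. Because the values are not counts, no count test was run.

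Totals in the transduced libraries were 12440397 to 13042039 normalized counts, and reads per library, approximated from the spacing of low values, were 10600000 to 15400000. This depth limits genes with few reads.

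The 14585 genes that reached 10 normalized counts in 2 or more libraries were tested with limma 3.58.1 (R 4.3.3, moderated test with a variance trend) on log2(normalized count + 1). The fit held the 22 libraries together with 1 mean for each group, so that the duplicate pairs share 1 estimate of the spread. P-values were adjusted by Benjamini-Hochberg over all genes of a comparison. A gene was called with adjusted p under 0.05 and a log2 difference over 1 in size. Folds on the log2(normalized count + 1) scale understate low genes, and the floor was 3 normalized counts per library.

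The rule for named genes took the transduced genes, called protein-coding genes without overlap and with at least 100 normalized counts in the higher group, and the first 2 members of each list. COL27A1 alone met its middle part, and the other single genes were named after their values were seen. Members and lists were chosen with earlier results of these data known. Names and positions are from GENCODE 44 (33878 of 36859 genes). Some genes are not reported here. The test was checked on simulated data. Python 3.11.15, pandas 2.3.3, numpy 2.4.6 and matplotlib 3.10.9 were used. Alternatives were other pseudocounts, filters, scalings and libraries, and 2 were chosen after the data were seen.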

Additional observations from a re-analysis of the deposited data

How the results depend on the processing

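Alternatives were run for 18 genes, the 3 called and 15 others. The 15 had the lowest p among protein-coding genes without overlap and with a mean of at least 100 normalized counts. The direction of the difference was kept in all 396 alternative values. As none of these genes overlapped, the direction was largely set beforehand. Of the values, 372 kept their side of the threshold and 24 lost the call. The 15 uncalled genes ran from log2 -0.65 to 0.88 over the settings, short of the limit of 1, so they could not gain a call. Most of the 372 are values of these genes and say nothing about how stable the calls are. Among the called genes, CDH3 kept the call in 11 settings and lost it in 11, and so did ENSG00000278326. COL27A1 kept it in 20 and lost it in 2. The number of genes called against the mean of the other lines was 3, and it became 11 with no filter, 1 with a mean of at least 50 normalized counts, 0 on the deposited values, 5 with the other lines taken without eGFP, 5 without OCT2, 1 without PRRX1, and 1 to 10 when each library was left out in turn. On the deposited values 5 genes had an adjusted p under 0.05 and 694 an unadjusted p under 0.05, and the limit of 1 on the log2 scale is stricter there because that scale is compressed. Against eGFP the number was 3, and it became 7 with a pseudocount of 0.5, 16 with no filter, 6 with the same total for every library, 5 with the 8 transduced libraries alone, 0 on the deposited values (9 with an adjusted p under 0.05), 6 without the 2 libraries of fewest reads, which was chosen after the data were seen, and 4 to 36 when each library was left out. The cause was not tested, except that no filter tests more genes and a higher filter fewer. A pseudocount of 5, quantile scaling, a filter on the 8 transduced libraries (chosen after the data were seen) and, for SETD2 loss, KO1 or KO2 alone left the counts within 1.5 times the reported ones. The same total for every library shifted the median of all genes by -0.025. Replicate numbers did not pair the libraries, since deviations of same-numbered libraries correlated at -0.07 to 0.08 over 6 pairs of lines, and with the replicate number as a block the counts were 3 and 3. Depth limits mainly genes under 100 normalized counts.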
